A study of Homo sapiens with 18 samples.

Results

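Gene expression was compared between 3 BE2C libraries carrying the short hairpin RNA shAhR-1, labelled as an AhR knockdown, and 3 BE2C libraries carrying the vector control pLKO-GFP. These 6 libraries are part of a series of 18, and every one of the 39368 genes in the deposited BE2C table belonged to the comparison. BE2C is an established human neuroblastoma cell line with an amplified MYCN oncogene, and pLKO is a lentiviral vector that expresses a short hairpin. In the rest of the series, 3 BE2C libraries carried a second hairpin named shAhR-2, and Kelly, another MYCN-amplified neuroblastoma line, had 3 libraries each of shAhR-1, shAhR-2 and pLKO-GFP. Total RNA was sequenced after removal of ribosomal RNA, so transcripts without a poly(A) tail were kept. Nothing in the labels states that libraries of one group were separate infections or cultures, and p-values therefore reflect only how these libraries scatter, possibly for technical reasons. The time after infection and the hairpins' sequences were not analysed here.

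The aryl hydrocarbon receptor, encoded by AHR, is a transcription factor that waits in the cytoplasm bound to HSP90 and co-chaperones such as p23. On binding a ligand it enters the nucleus, pairs with ARNT and binds DNA at a GCGTG core, where it switches on genes such as the cytochrome P450 gene CYP1A1 and its own feedback regulators AHRR and TIPARP. Neuroblastoma arises from the sympathetic lineage, and its adrenergic cells express the transcription factors HAND2 and GATA3 together with the enzymes of catecholamine synthesis.

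The shAhR-1 libraries held 44385701, 39057512 and 41623647 counts, against 42351647, 43423772 and 41969936 in the control libraries. Levels are given as CPM, counts scaled to library size (with TMM factors between libraries), and changes as log2 fold changes ± SE, shAhR-1 over control, so that 1 is a 2-fold rise. No 2 of the 6 libraries held identical values. All 10 markers that define neuroblastoma cells were measured, and their summed level was 4964, 4994 and 5020 CPM in shAhR-1 libraries, against 5669, 5505 and 5550 CPM in controls. MYCN itself was at 1843, 1847 and 1837 CPM in shAhR-1 libraries and 2229, 2170.2 and 2221 CPM in controls.

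AHR (chromosome 7, 16916359–17346152, plus strand, GRCh38) was barely detected. The shAhR-1 libraries held 8, 0 and 0 AHR counts, against 4, 4 and 6 in the controls. The groups overlapped, since the first shAhR-1 library exceeded every control while the other two had no count. The pooled AHR rate was 0.584 of that in controls, with an exact 95% interval of 0.212 to 1.49, and the 2-sided exact permutation test of CPM gave p = 0.4, where 3 libraries against 3 cannot go below 0.1. Without the first shAhR-1 library the ratio was 0, with an upper limit of 0.477. That limit takes every count as a separate fragment and would be wider if both mates of a pair were counted. It was not computed with halved counts. AHR did not pass the filter on low counts in BE2C, a fall with shAhR-1 was not shown, and 32.3% of its exonic bases are shared with other annotated genes on one strand or the other.

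Genes of the receptor's complex were well measured. ARNT, the receptor's dimer partner, had 50.1, 51.3 and 52.2 CPM in shAhR-1 libraries, against 70.6, 66.1 and 64.5 CPM in controls. PTGES3, which encodes p23, had 538, 551 and 555 CPM in shAhR-1 libraries, against 898, 946 and 907 CPM in controls. Every shAhR-1 library lay below every control for both genes, and their log2 changes were −0.39 ± 0.046 (adjusted p = 9.56e-09) and −0.74 ± 0.028 (adjusted p = 6.34e-21). HSP90AA1 fell (−0.603 ± 0.027), as did HSP90AB1 (−0.17 ± 0.024), while SRC, a kinase found with the cytoplasmic complex, rose by 0.24 ± 0.053. In all, 1 of the 9 measured members of this list rose and 5 fell, read against 25.2% and 27.1% of all 15732 genes tested.

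Of 14 known targets of the receptor, 6 were measured, 1 rose and 1 fell, and 5 had no count in any of the 6 libraries. NFE2L2, the master regulator of antioxidant genes, rose by 0.37 ± 0.044 (adjusted p = 1.23e-08), with 20.9% of its exonic bases shared with other genes. TIPARP, a poly-ADP-ribose polymerase that restrains the receptor, had 6.97, 7.59 and 5.83 CPM in shAhR-1 libraries and 7.96, 9.61 and 7.89 CPM in controls. The groups did not overlap, and its log2 change was −0.32 ± 0.12 (adjusted p = 0.0202), a call lost in some of the alternative fits. The 250 bases upstream of its start (RefSeq, GRCh38.p14, chr3:156674340-156674589, plus strand) are shown because they hold the receptor's core motif on the minus strand in 2 places, in capitals as CACGC.
TIPARP: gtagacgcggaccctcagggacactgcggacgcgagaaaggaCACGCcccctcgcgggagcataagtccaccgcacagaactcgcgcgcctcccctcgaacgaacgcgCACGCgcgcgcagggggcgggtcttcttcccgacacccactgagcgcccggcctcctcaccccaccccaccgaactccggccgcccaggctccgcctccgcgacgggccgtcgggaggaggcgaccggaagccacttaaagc
The letters GCGTG, on either strand, occurred in 44.5% of the upstream windows of genes called higher and 48.2% of those called lower, against 44.6% of the 11768 windows of tested genes found in the RefSeq table and 31.9% of all 27305 windows in it. A match to 5 letters is a description of the window and not a binding site.

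The comparison as a whole was wide and mostly shallow. Of the 15732 genes tested, 3964 were higher with shAhR-1 (25.2%) and 4270 lower (27.1%), 52.3% in all, by edgeR's quasi-likelihood test with a Benjamini-Hochberg adjusted p below 0.05. The median log2 change was 0.43 among genes called higher and −0.38 among genes called lower, while the median of all genes was 0.01. A change of at least 2-fold was called for 632 genes upward (4.02%) and 434 downward (2.76%). The 3 shAhR-1 libraries lay wholly above or wholly below the 3 controls for 57.7% of tested genes, and 7861 genes were both called and separated in this way. The genes that fell at least 2-fold had a median of 13.7 CPM in controls, whereas those that rose at least 2-fold had a median of 0.486 CPM, so the large rises lay mostly at lower levels than the large falls. Counts of list members are to be read against the shares of 25.2% and 27.1%, and a list near them shows nothing about its members. By gene class, 25.1% of the 1249 long noncoding RNAs tested were higher, near the share of all genes, and 6.89% lower. Their median level was 0.757 CPM, against 23.0 CPM for coding genes, so the shares of these classes are not directly comparable.

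**Figure D1:**
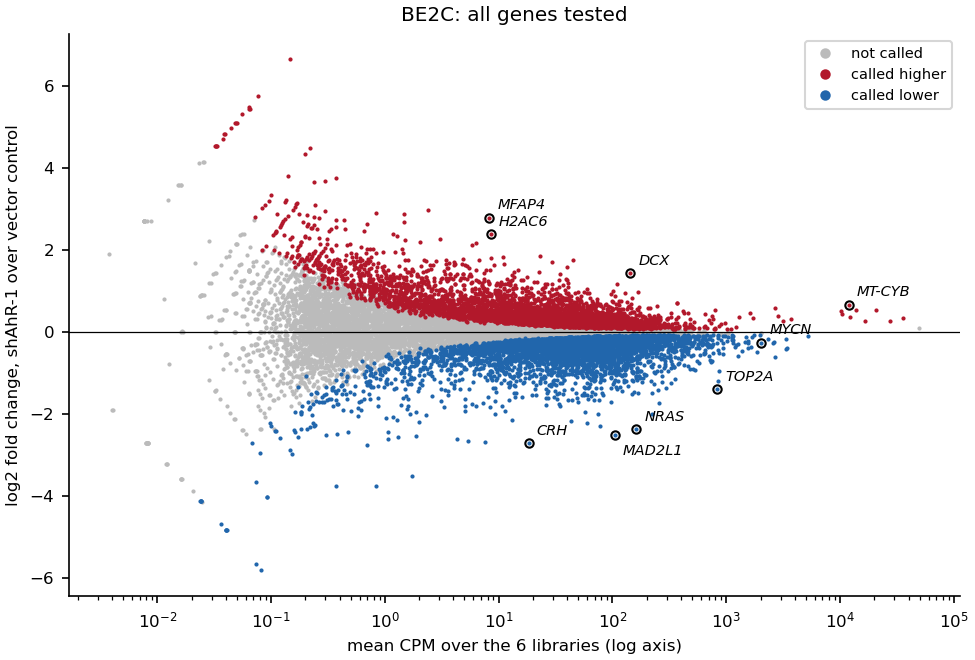
Log2 fold change of each tested BE2C gene, shAhR-1 over vector control (vertical axis), against its mean CPM over the 6 libraries (horizontal log axis). Red points are the 3964 genes called higher, blue points the 4270 called lower and grey points the genes not called; CRH, MAD2L1 and NRAS are the lowest of the named points, and MFAP4 and H2AC6 the highest, while many larger changes lie at the low levels on the left.

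The steepest falls among well-measured genes were in secreted signals, a receptor and regulators of division. CRH, which encodes corticotropin-releasing hormone, had 4.77, 4.97 and 4.76 CPM in shAhR-1 libraries, against 32.3, 33.1 and 29.9 CPM in controls. STC1, which encodes the secreted glycoprotein stanniocalcin 1, had 1.499, 1.36 and 1.55 CPM in shAhR-1 libraries and 8.98, 9.42 and 9.67 CPM in controls. APLNR, the receptor for apelin, had 2.09, 2.51 and 1.51 CPM in shAhR-1 libraries and 14.9, 10.7 and 13.5 CPM in controls. For all of them every shAhR-1 library lay far below every control, and the log2 changes were −2.72 ± 0.092 for CRH, −2.66 ± 0.14 for STC1 and −2.68 ± 0.14 for APLNR. The largest adjusted p of the 3 was that of APLNR, at 2.8e-17.

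NRAS, a small GTPase that carries growth signals from receptor tyrosine kinases (chromosome 1, 114704469–114716894, minus strand), had 53.6, 52.1 and 51.996 CPM in shAhR-1 libraries, against 269, 276 and 267 CPM in controls. No library of either group came near the other, and the log2 change was −2.36 ± 0.034 (adjusted p = 5.64e-32). KCTD20, a BTB-domain protein, had 26.04 ± 1.04 CPM with shAhR-1 and 128 ± 6.501 CPM in controls (mean ± SD, n = 3 each), a log2 change of −2.299 ± 0.044. METTL7A, a methyltransferase-like protein, had 89.4 ± 0.602 CPM with shAhR-1 and 359 ± 7.76 CPM in controls, and MORF4L2, a subunit of a chromatin acetyltransferase complex, had 118 ± 2.27 CPM with shAhR-1 and 392 ± 8.31 CPM in controls. Their spreads were small beside the differences, and the log2 changes were −2.004 ± 0.032 and −1.73 ± 0.031. RAB8B, a GTPase of vesicle traffic, fell (−2.15 ± 0.086), as did TMX1, a thioredoxin-like protein of the endoplasmic reticulum membrane (−1.99 ± 0.049) and KIAA1191 (−2.23 ± 0.046). CEND1, a neuronal protein linked to exit from the cell cycle, fell (−2.01 ± 0.13), with 3.36, 4.63 and 3.13 CPM in shAhR-1 libraries and 16.4, 13.8 and 14.5 CPM in controls.

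The largest rises included a matrix protein, histones and proteins of neurons. MFAP4, a microfibril-associated glycoprotein of the extracellular matrix (chromosome 17, 19383442–19387240, minus strand), had 14.4, 15.4 and 13.4 CPM in shAhR-1 libraries, against 2.45, 2.19 and 1.603 CPM in controls. TSHZ3, a zinc finger transcription factor of neuron and smooth muscle development, had 10.7, 10.6 and 9.88 CPM in shAhR-1 libraries and 2.57, 1.903 and 2.47 CPM in controls. ABCA12, a lipid transporter best known from skin, had 63.7, 75.2 and 67.9 CPM in shAhR-1 libraries and 20.8, 19.9 and 20.6 CPM in controls. No library of either group crossed into the other for these genes, and the log2 changes were 2.79 ± 0.13 for MFAP4, 2.17 ± 0.13 for TSHZ3 and 1.75 ± 0.065 for ABCA12.

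DCX, which encodes doublecortin, the microtubule-binding protein of migrating young neurons, had 203, 211 and 212 CPM in shAhR-1 libraries, against 79.996, 76.7 and 75.5 CPM in controls. Its log2 change was 1.43 ± 0.033 (adjusted p = 8.19e-27). DLG2, a scaffold of the postsynaptic density, rose by 1.74 ± 0.13, with 10.8, 9.52 and 10.6 CPM in shAhR-1 libraries and 3.93, 2.83 and 2.47 CPM in controls. DYRK1B, a kinase linked to quiescence, rose by 1.82 ± 0.13 and S1PR2, a receptor for sphingosine-1-phosphate, by 1.65 ± 0.096. SERTM2 (45.5 ± 1.06 CPM with shAhR-1, against 13.9 ± 1.51 CPM in controls), SAMD11 (59.95 ± 1.95 CPM with shAhR-1, against 20.1 ± 0.9203 CPM in controls) and the long noncoding RNA LINC02593 (36.3 ± 1.396 CPM with shAhR-1, against 10.1 ± 1.43 CPM in controls) rose by 1.71 ± 0.063, 1.58 ± 0.049 and 1.85 ± 0.073. The zinc finger gene ZNF610 rose by 1.64 ± 0.15.

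**Figure D2:**
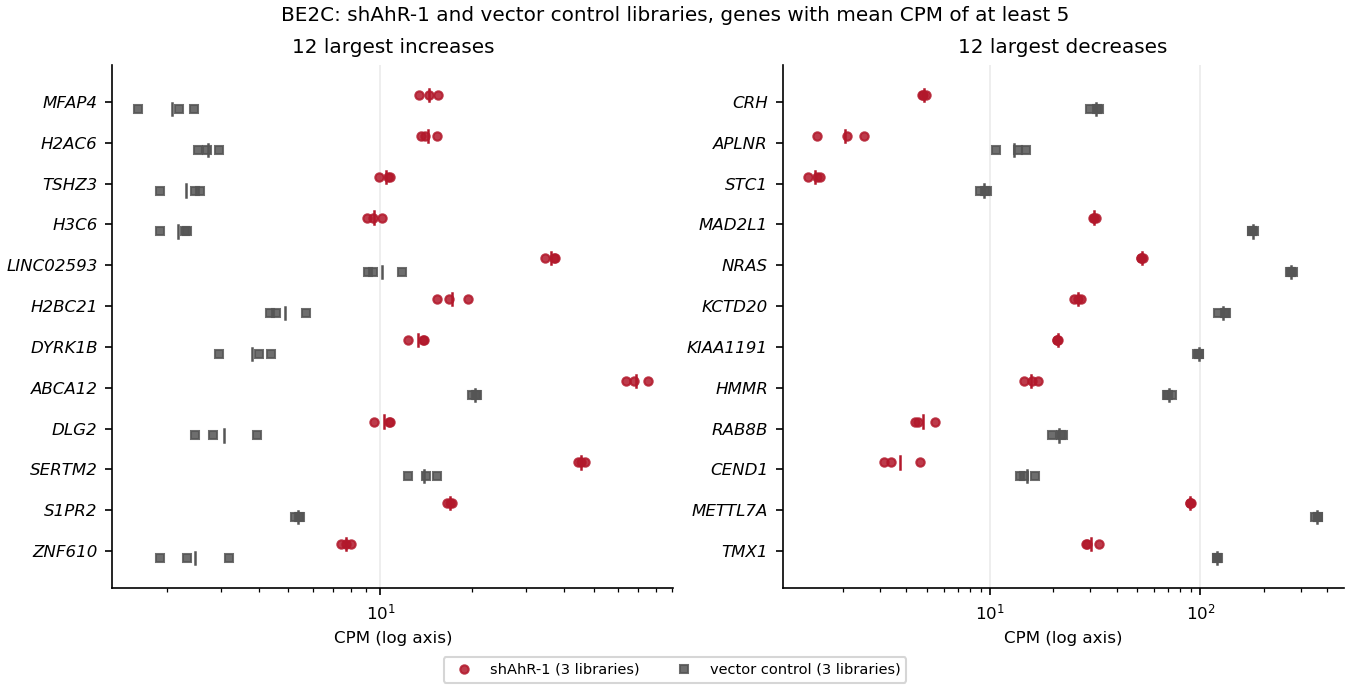
CPM of the 12 genes with the largest increases (left) and the 12 with the largest decreases (right) in each BE2C library, on a log axis. Red circles are the 3 shAhR-1 libraries, grey squares the 3 vector control libraries, and short lines the means; in none of the 24 genes do the libraries of the groups overlap, which the choice of these genes required.

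Genes of mitosis fell almost without exception. All 26 measured genes of mitotic entry were lower (median log2 −0.76), as were 42 of 44 spindle, kinetochore and cytokinesis genes (median −0.78) and all 27 genes of chromosome structure (median −0.70), while none of these rose. In bulk libraries, fewer dividing cells and less RNA per dividing cell cannot be told apart. MAD2L1, a core component of the spindle checkpoint, had 31.2, 30.8 and 31.8 CPM in shAhR-1 libraries, against 175, 176 and 181 CPM in controls. Every shAhR-1 library lay far below every control, and its log2 change was −2.504 ± 0.040 (adjusted p = 7.38e-31). HMMR, a spindle-associated receptor for hyaluronan, fell (−2.18 ± 0.062), as did CDCA5, a protector of sister chromatid cohesion (−1.54 ± 0.062).

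PLK1, the polo-like kinase of mitotic entry, had 61.3, 60.6 and 56.9 CPM in shAhR-1 libraries, against 165, 146 and 161 CPM in controls, a log2 change of −1.401 ± 0.045. CDK1, the kinase that drives cells into mitosis, fell (−1.23 ± 0.037), as did CDC20, an activator of the anaphase-promoting complex (−1.18 ± 0.045). FOXM1 (−1.07 ± 0.033), AURKB (−1.06 ± 0.045) and CCNB1 (−0.96 ± 0.036) fell alongside, and the shallowest member was CDC25A (−0.195 ± 0.040). TOP2A, the topoisomerase that untangles replicated chromosomes, had 455, 454 and 454 CPM in shAhR-1 libraries, against 1186, 1199 and 1201 CPM in controls. Its groups were tight and far apart, and it fell (−1.396 ± 0.027). H2AZ1, a histone variant, fell (−1.48 ± 0.033), as did SMC1A, a cohesin subunit (−1.22 ± 0.031).

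Many mitotic genes carry a pair of promoter motifs, the CCAAT box and the cell cycle homology region TTTGAA. Through the homology region they are held silent outside division. The upstream windows of PLK1 (chr16:23678639-23678888, plus strand) and MAD2L1 (chr4:120066849-120067098, minus strand) are shown as members with large falls, 250 bases before the RefSeq start in GRCh38.p14, with CCAAT or its complement ATTGG and TTTGAA or its complement TTCAAA in capitals.
PLK1: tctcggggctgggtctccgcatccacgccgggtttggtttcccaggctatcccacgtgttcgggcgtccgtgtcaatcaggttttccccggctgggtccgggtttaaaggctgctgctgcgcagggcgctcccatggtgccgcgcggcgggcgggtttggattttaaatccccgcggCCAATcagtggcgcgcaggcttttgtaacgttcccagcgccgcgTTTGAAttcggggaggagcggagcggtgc
MAD2L1: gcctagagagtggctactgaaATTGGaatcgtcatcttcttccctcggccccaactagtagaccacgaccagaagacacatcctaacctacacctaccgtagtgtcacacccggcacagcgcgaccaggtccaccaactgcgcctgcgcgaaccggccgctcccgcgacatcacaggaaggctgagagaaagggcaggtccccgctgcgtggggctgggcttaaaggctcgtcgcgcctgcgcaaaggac
PLK1 held both motifs and MAD2L1 the CCAAT box alone. TTTGAA, on either strand, was in 40% of the 20 mitotic entry windows and 46.2% of the 39 spindle windows, against 8.70% of the tested windows. CCAAT was in 75% and 69.2% of them, against 34.9% of the tested windows. These shares describe genes chosen by function and are not a test of the change.

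Genes of the DNA synthesis machinery were also mostly lower. Of 41 genes of origin licensing and the replication fork, 35 fell and 1 rose (median −0.35), and all 10 genes of deoxynucleotide supply fell (median −0.54). POLA1, the catalytic subunit of the primase-bound polymerase, had 34.3, 36.7 and 37.7 CPM in shAhR-1 libraries, against 113, 121 and 113 CPM in controls, a log2 change of −1.67 ± 0.049. RFC3, a subunit of the sliding clamp loader, fell (−1.37 ± 0.042), as did GINS1, part of the replicative helicase (−1.19 ± 0.037). Against these, the helicase subunit MCM5 rose by 0.095 ± 0.040 (adjusted p = 0.0475), a call lost in several alternative fits. SAMHD1, a hydrolase of deoxynucleotides, fell (−1.06 ± 0.047), as did RRM2B (−1.03 ± 0.074) and RRM2, another small subunit of ribonucleotide reductase (−0.66 ± 0.038).

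Repair and G1 genes were lower more often than higher. In DNA repair and checkpoint signalling, 32 of 37 genes fell and 1 rose (median −0.49). XRCC6, which encodes the Ku70 protein of end joining, had 222, 225 and 219.8 CPM in shAhR-1 libraries, against 502, 473 and 503 CPM in controls, and fell (−1.15 ± 0.030). Its groups were well apart, and its joining partner XRCC4 fell (−0.99 ± 0.11). Among 28 G1 cyclins, E2F factors and CDK inhibitors, 17 fell and 4 rose (median −0.21). The repressor E2F7 fell (−1.43 ± 0.075), as did cyclin E1 (CCNE1) (−1.02 ± 0.13). The 4 that rose were 14.3% of members, against 25.2% of all genes tested. They were the CDK inhibitors CDKN2B (0.73 ± 0.13), CDKN2A (0.44 ± 0.094) and CDKN1B (0.26 ± 0.039) and the pocket protein RBL2 (0.62 ± 0.048).

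**Figure D3:**
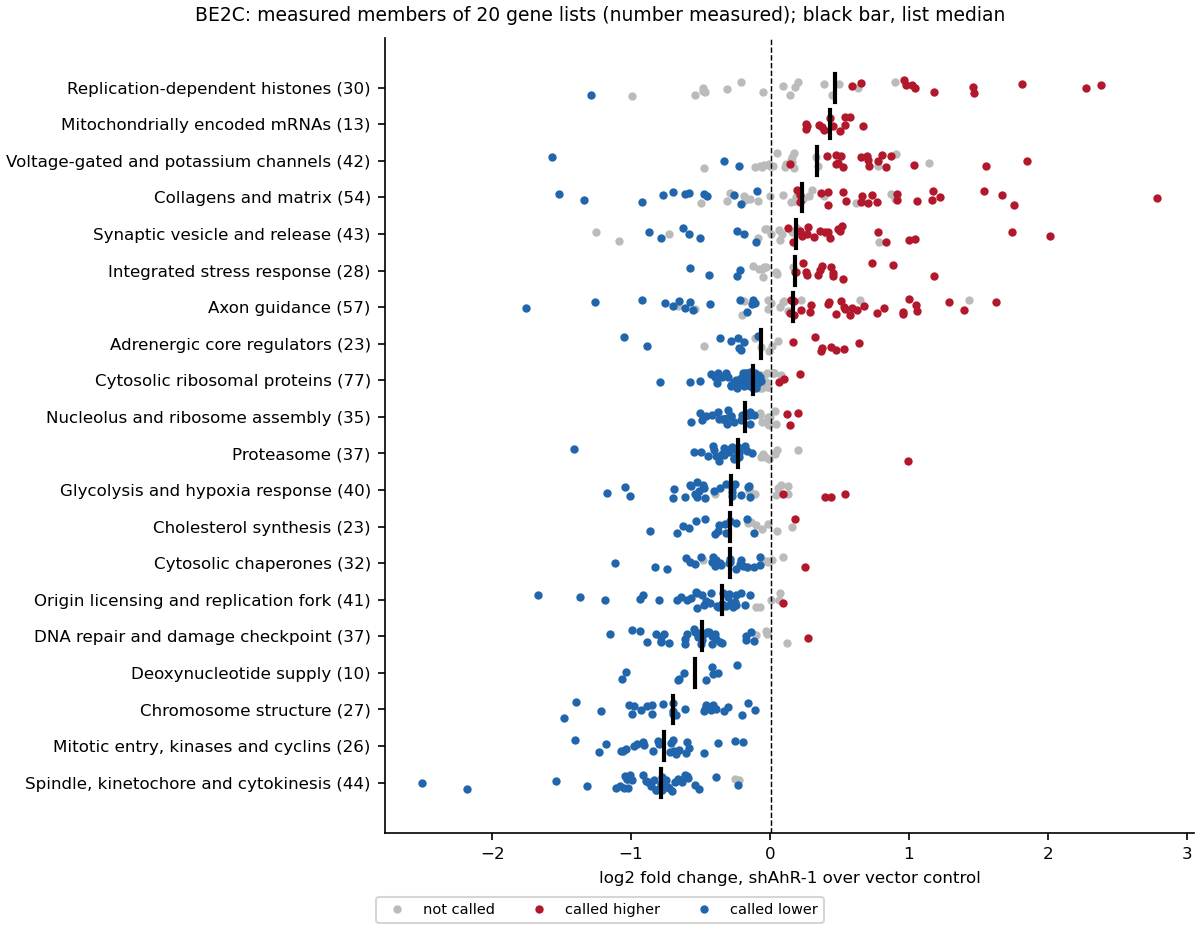
Log2 fold change, shAhR-1 over vector control, of each measured member (points) of 20 gene lists in BE2C, with the number measured in brackets. Red points were called higher and blue points lower, the black bar is the list median and the dashed line the median of all genes; the lists of cell division lie left of 0, with medians down to −0.78, while histone and mitochondrially encoded lists have medians of 0.47 and 0.44.

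Replication-dependent histones moved the opposite way to the rest of the division genes. Of 30 measured, 12 rose and 1 fell (median 0.47), and their summed level was 94.4, 101 and 96.5 CPM in shAhR-1 libraries, against 43.0, 43.3 and 42.9 CPM in controls. The sums did not overlap. H2AC6 (chromosome 6, 26124145–26139116, plus strand) had 13.6, 13.97 and 15.3 CPM in shAhR-1 libraries and 2.96, 2.52 and 2.71 CPM in controls, a log2 change of 2.39 ± 0.12. H2BC21 (chromosome 1, 149884459–149886652, minus strand) had 15.3, 19.4 and 16.8 CPM in shAhR-1 libraries and 4.56, 5.69 and 4.34 CPM in controls, a change of 1.82 ± 0.11. H2BC12 rose by 1.46 ± 0.093, H2BC5 by 1.18 ± 0.11 and H1-2 by 1.05 ± 0.12, and H3C6, a histone H3 gene outside this list, by 2.13 ± 0.13. The one that fell, H1-5, stood at 0.244 ± 0.0172 CPM with shAhR-1 and 0.59995 ± 0.258 CPM in controls, and its call was lost in most alternative fits. Within one histone family, many of these genes are near copies of one another. How reads were shared among them is not stated in the sources at hand, so single members are uncertain. Their mRNAs normally end in a stem-loop with no poly(A) tail, and a poly(A)-tailed form cannot be told apart from it in these counts.

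Upstream windows of the pair are shown because both genes lie in histone clusters and rose together. They are H2AC6 (chr6:26123922-26124171, plus strand) and H2BC21 (chr1:149886683-149886932, minus strand), with CCAAT or ATTGG in capitals.
H2AC6: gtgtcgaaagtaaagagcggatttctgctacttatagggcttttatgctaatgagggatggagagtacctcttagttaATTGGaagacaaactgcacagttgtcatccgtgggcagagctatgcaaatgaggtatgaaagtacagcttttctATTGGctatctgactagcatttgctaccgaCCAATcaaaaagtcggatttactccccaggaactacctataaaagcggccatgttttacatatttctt
H2BC21: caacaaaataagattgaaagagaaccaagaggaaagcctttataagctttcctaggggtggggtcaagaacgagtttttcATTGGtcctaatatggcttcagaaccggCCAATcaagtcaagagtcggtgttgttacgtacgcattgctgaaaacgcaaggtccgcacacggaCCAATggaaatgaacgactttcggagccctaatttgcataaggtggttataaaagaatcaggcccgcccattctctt
Each window held 3 such boxes, and CCAAT was in 84.1% and TTTGAA in 31.8% of the 44 histone windows found, against 34.9% and 8.70% of the tested windows. Of 15 genes for histone mRNA 3′ processing, 8 fell and 4 rose (median −0.22). The cleavage factor subunit CPSF2 fell (−0.45 ± 0.035), as did LSM11, of the U7 particle (−0.43 ± 0.060) and the stem-loop binding protein gene SLBP (−0.28 ± 0.038). CPSF4 rose by 0.66 ± 0.062, and NPAT, the activator of histone transcription, by 0.16 ± 0.039.

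Transcripts made in mitochondria took up a larger share of the libraries. They held 24.3%, 24.9% and 24.3% of counts in shAhR-1 libraries (mean 24.5% ± 0.367, SD), against 18.8%, 19.1% and 19.4% in controls (19.1% ± 0.303). The difference was 5.41 percentage points, and the exact permutation test gave p = 0.1, the smallest it can give with 3 against 3. The share was 25.1%, 20.5% and 20.5% in the shAhR-2 libraries, so the first of these stood apart within its group. All 13 mitochondrially encoded mRNAs rose (median 0.44). MT-CYB, of respiratory complex III, had 14281, 14916 and 14567 CPM in shAhR-1 libraries, against 8985, 9192 and 9363 CPM in controls, and rose by 0.67 ± 0.048. The groups did not overlap. MT-ND6, the only one of these mRNAs encoded on the light strand, rose by 0.58 ± 0.049, MT-CO3 by 0.54 ± 0.051 and MT-ND1 by 0.54 ± 0.050, while the smallest rise was MT-ND4 at 0.26 ± 0.047. The ribosomal RNA MT-RNR2 was at 51010.5 ± 1396 CPM with shAhR-1 and 47922 ± 1294 CPM in controls and was not called (0.09 ± 0.055, adjusted p = 0.171).

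The nuclear genes for the same complexes were mostly not called. Of 75 nuclear-encoded respiratory chain genes, 8 rose and 23 fell (median −0.05), which is 10.7% and 30.7% of members against 25.2% and 27.1% of all genes tested. UQCRQ, of complex III, fell (−0.85 ± 0.057), as did SDHC, of complex II (−0.797 ± 0.046) and NDUFB5, of complex I (−0.75 ± 0.057). The risers were small, the largest called being NDUFS7 (0.22 ± 0.087), whose call was lost in some alternative fits and which shares 49.1% of its exonic bases. Among 20 genes that maintain and express mitochondrial DNA, 11 fell and 3 rose. The coactivator PPARGC1A fell (−0.52 ± 0.071), as did NRF1 (−0.44 ± 0.077) and GABPA (−0.32 ± 0.045), while the DNA polymerase POLG rose by 0.32 ± 0.046.

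MYCN fell (−0.26 ± 0.024, adjusted p = 4.49e-11), and several partners that compete for MAX rose. Of 12 measured members of the MYCN and MAX network 5 rose and 3 fell. MXD4 had 37.3, 36.9 and 39.1 CPM in shAhR-1 libraries, against 20.2, 20.9 and 19.3 CPM in controls, and rose by 0.91 ± 0.056. MXD1 rose by 0.63 ± 0.092, MXI1 by 0.39 ± 0.057 and MNT by 0.24 ± 0.054, all repressors that pair with MAX. The MondoA gene MLXIP rose by 0.39 ± 0.042 and its partner MLX fell (−0.23 ± 0.046). MXD3, by contrast, fell (−0.64 ± 0.13), with 40.4% of its exonic bases shared with neighbours.

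Genes of ribosome production were mostly lower by small amounts. In the nucleolus and ribosome assembly list 23 of 35 fell and 3 rose (median −0.18), and 58 of 77 cytosolic ribosomal protein genes fell against 3 that rose (median −0.12). RRS1, a ribosome assembly factor, fell (−0.57 ± 0.056), as did UTP20, of the small-subunit processome (−0.51 ± 0.038) and NOP58, a core box C/D snoRNA protein (−0.49 ± 0.032). RPS27A, a ubiquitin fusion, had 210.1, 218 and 213 CPM in shAhR-1 libraries, against 372, 367 and 369 CPM in controls, and fell (−0.79 ± 0.030). RPL21 fell (−0.58 ± 0.032), as did RPS12 (−0.502 ± 0.029), while RPL10 rose by 0.22 ± 0.026. Ribosomal protein genes have many processed copies in the genome, so single values are uncertain. In polyamine synthesis, where ODC1 is the rate-limiting enzyme and a known MYCN target, ODC1 fell (−0.43 ± 0.028), as did AMD1 (−0.49 ± 0.035), and in all 6 of 13 genes fell and 3 rose.

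Chaperones and the proteasome fell as groups in the cytosol. Of 32 cytosolic chaperone genes, 24 fell and 1 rose (median −0.29), and of 37 proteasome genes 28 fell and 1 rose (median −0.23). FKBP4, a co-chaperone of HSP90, had 108, 114 and 113 CPM in shAhR-1 libraries, against 244, 234 and 246 CPM in controls, and fell (−1.12 ± 0.034). HSPH1 fell (−0.83 ± 0.029), as did BAG3 (−0.54 ± 0.064), and the riser was HSF1 (0.26 ± 0.077, a call lost in some alternative fits), the heat shock transcription factor. PSME3, the nuclear proteasome activator PA28γ, had 137, 140.1 and 137 CPM in shAhR-1 libraries, against 371, 369 and 359 CPM in controls, and fell (−1.41 ± 0.034). It stood clear of the other members, of which PSMA7 came next among the well-measured ones at −0.55 ± 0.030.

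The endoplasmic reticulum list was split, with 9 of 23 genes higher and 6 lower (median 0.07). HSPA5, the chaperone BiP, had 855 ± 23.8 CPM with shAhR-1 and 681 ± 12.3 CPM in controls and rose by 0.33 ± 0.029, and DNAJB11 and HSP90B1 rose by 0.29 ± 0.045 and 0.22 ± 0.027. DNAJC3, an inhibitor of the stress kinase PERK, had 17.4, 17.3 and 19.04 CPM in shAhR-1 libraries, against 48.1, 52.1 and 49.98 CPM in controls. It fell (−1.48 ± 0.063), and the transcription factor CREB3L2 fell (−1.03 ± 0.045).

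In the integrated stress response, in which ATF4 raises amino acid synthesis and tRNA charging, 15 of 28 genes rose and 4 fell (median 0.18). ATF4 rose by 0.37 ± 0.032. STC2 had 37.03, 38.8 and 35.6 CPM in shAhR-1 libraries, against 19.5, 21.9 and 18.8 CPM in controls, and rose by 0.89 ± 0.082. ALDH1L2, a mitochondrial folate enzyme, had 173, 169 and 162 CPM in shAhR-1 libraries and 98.8, 104 and 100.3 CPM in controls and rose by 0.74 ± 0.037. The groups were apart for both. CHAC1, a glutathione-degrading enzyme, rose by 0.52 ± 0.15. ASNS, asparagine synthetase, had the largest rise of the list, 1.18 ± 0.17, with a larger SE than STC2, ALDH1L2 or CHAC1. The rule for named genes, which set a floor on the mean level, did not pick ASNS. Its level is not given here, so this rise is less certain than those of STC2 and ALDH1L2. Among the 4 that fell were SHMT2, of serine and folate metabolism, at −0.58 ± 0.040, MTHFD2 at −0.44 ± 0.036 and PHGDH at −0.24 ± 0.033.

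Carbon and lipid metabolism was mostly lower. In glycolysis and the hypoxia response 27 of 40 genes fell and 4 rose (median −0.28), and 15 of 23 cholesterol synthesis genes fell against 1 that rose (median −0.29). ALDOC, a brain aldolase, fell (−1.01 ± 0.10), as did the mitophagy receptor BNIP3 (−0.7004 ± 0.044), ENO1 (−0.54 ± 0.028), PGK1 (−0.52 ± 0.027) and the glucose transporter SLC2A1 (−0.53 ± 0.045). EBP, a sterol isomerase, fell (−0.87 ± 0.077), as did DHCR7 (−0.67 ± 0.047) and HMGCS1 (−0.63 ± 0.038). The sterol carrier STARD4 rose by 0.18 ± 0.038. Of 19 fatty acid genes 10 fell and 3 rose, with the desaturase SCD at −0.51 ± 0.026 and ACSL4 at 0.33 ± 0.041. In iron handling, where 5 of 14 genes rose and 3 fell, the transferrin receptor TFRC had 596, 609.5 and 581 CPM in shAhR-1 libraries, against 1114, 1211 and 1108 CPM in controls, and fell (−0.94 ± 0.045). The metalloreductase STEAP3 fell (−0.896 ± 0.097), and FTH1, of ferritin, rose by 0.21 ± 0.055 with 62.4% of its exonic bases shared.

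Targets of p53 did not move one way, with 6 of 25 higher and 10 lower (median −0.02). MDM2, the ubiquitin ligase of p53, had 63.1, 57.7 and 60.1 CPM in shAhR-1 libraries, against 132, 139 and 126 CPM in controls, and fell (−1.13 ± 0.044). CCNG1 had 37.01, 32.2 and 35.3 CPM in shAhR-1 libraries and 97.3, 98.4 and 95.4 CPM in controls and fell (−1.48 ± 0.047). TP53INP1, a target that promotes cell death and autophagy, had 28.2, 28.3 and 29.1 CPM in shAhR-1 libraries and 11.5, 15.5 and 9.72 CPM in controls. It rose by 1.22 ± 0.0996, and the RNA-binding ZMAT3 rose by 0.54 ± 0.063. In all of these the libraries of the groups were apart.

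The BCL2 family and cell death list was also divided, with 9 of 29 higher and 11 lower. BCL2L11, which encodes the death activator BIM, had 58.4, 56.1 and 54.4 CPM in shAhR-1 libraries, against 22.8, 25.4 and 22.1 CPM in controls, and rose by 1.26 ± 0.054. BCL2, the survival protein that BIM binds, had 67.3, 66.8 and 65.2 CPM in shAhR-1 libraries and 35.3, 32.2 and 33.8 CPM in controls and rose by 0.98 ± 0.045. The neuronal death activator HRK rose by 0.76 ± 0.085 and DIABLO, an antagonist of inhibitors of apoptosis, by 1.07 ± 0.093. BIRC2, an inhibitor of apoptosis, fell (−1.24 ± 0.045), as did PMAIP1, which encodes NOXA (−0.74 ± 0.079).

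Of 23 core regulators of adrenergic cells 8 rose and 9 fell (median −0.06), read against 25.2% and 27.1% of all genes tested. SOX4 had 296, 305 and 300.4 CPM in shAhR-1 libraries and 197, 193 and 188 CPM in controls and rose by 0.64 ± 0.031. SATB1 rose by 0.54 ± 0.043, ISL1 by 0.48 ± 0.040 and TFAP2B by 0.37 ± 0.040, while HAND2 fell (−0.23 ± 0.028), as did GATA2 (−0.19 ± 0.028).

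In the list of catecholamine synthesis and storage, which also holds VIP, NPY and granins, 12 of 21 genes fell and 6 rose (median −0.16). TH, the rate-limiting enzyme of the pathway, had 45.3, 52.999 and 52.8 CPM in shAhR-1 libraries, against 111, 105 and 106 CPM in controls, and fell (−1.098 ± 0.051). DBH, which makes noradrenaline, fell (−0.42 ± 0.035), as did DDC (−0.27 ± 0.029). The noradrenaline transporter SLC6A2 rose by 0.34 ± 0.040, the vesicular transporter SLC18A1 by 0.38 ± 0.055 and GCH1, which makes the cofactor of TH, by 0.43 ± 0.078. VIP, a neuropeptide of the same cells, had 22.6, 23.96 and 24.6 CPM in shAhR-1 libraries and 73.8, 75.8 and 69.1 CPM in controls and fell (−1.62 ± 0.079). Of 17 granins, peptides and processing enzymes 7 rose and 7 fell, with CHGB at 0.19 ± 0.027, SCG2 at 0.24 ± 0.028, NPY at −0.37 ± 0.050 and CHGA at −0.204 ± 0.030.

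Structural and synaptic genes of neurons rose in part. Among 38 microtubule and neurofilament genes 14 rose and 16 fell. The tubulins TUBB4B (−0.88 ± 0.029) and TUBA1B (−0.86 ± 0.030) fell together with MAP1B (−0.75 ± 0.036) and the neurofilament gene NEFL (−0.73 ± 0.039), and TUBA1B shares 36.6% of its exonic bases. DCX, KIF5C (0.77 ± 0.036), STMN2 (0.54 ± 0.032) and MAPT (0.46 ± 0.079), which encodes tau, rose. STMN2, a tubulin-binding protein of growing axons, had 947, 961 and 948 CPM in shAhR-1 libraries, against 652, 666 and 649.98 CPM in controls. Of 43 synaptic genes 20 rose and 8 fell (median 0.19). Besides DLG2 these included SYT5 (1.04 ± 0.074) and SNAP91 (0.78 ± 0.048), whereas SV2A fell (−0.58 ± 0.038).

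Axon guidance genes numbered 57, of which 28 rose and 15 fell (median 0.17). EPHA5 rose by 0.999 ± 0.12, the secreted repellent SEMA3A by 0.96 ± 0.088 and the netrin receptor UNC5A by 0.82 ± 0.083, while SEMA5A fell (−1.76 ± 0.12), as did SEMA4D (−0.92 ± 0.073) and the plexin PLXNC1 (−0.76 ± 0.11). Voltage-gated and potassium channels were higher more often than lower, with 18 of 42 rising and 3 falling (median 0.34, or 0.38 with genes at 0 in a group set to a bound of 3 counts). CACNA2D1, an auxiliary calcium channel subunit, had 193, 184 and 191 CPM in shAhR-1 libraries, against 103, 105 and 110.1 CPM in controls, and rose by 0.83 ± 0.034. HCN2, a pacemaker channel, rose by 1.04 ± 0.069, while KCNQ5 fell (−0.33 ± 0.056).

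Of 25 growth factor receptor genes 7 were higher and 6 lower, shares near those of all genes tested (25.2% and 27.1%). GFRA2, a co-receptor for neurturin, had 4.82, 5.13 and 4.32 CPM in shAhR-1 libraries, against 18.1, 14.4 and 17.6 CPM in controls, and fell (−1.81 ± 0.088). Its signalling partner RET had 167, 165 and 159 CPM in shAhR-1 libraries and 277, 249.5 and 275 CPM in controls and fell (−0.71 ± 0.033). IGF1R rose by 0.56 ± 0.048 and ALK by 0.24 ± 0.082 (adjusted p = 0.0132), and the call on ALK was lost in some alternative fits. Among MAPK feedback and immediate early genes, 6 of 33 rose and 11 fell. SPRY4 fell (−0.79 ± 0.046), as did ETV4 (−0.66 ± 0.079) and DUSP4 (−0.47 ± 0.041), whereas DUSP6, a phosphatase of ERK, rose by 0.72 ± 0.071 with 40.5% of exonic bases shared, and NR4A1 rose by 0.74 ± 0.075.

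Developmental pathways showed few one-sided changes. Of 16 retinoic acid genes 5 rose and 7 fell, with the receptor RARG at −0.69 ± 0.11, RDH10, which makes retinaldehyde, at −0.64 ± 0.072 and the cofactors MEIS2 and MEIS1 at 0.33 ± 0.035 and 0.26 ± 0.062. Of 22 Notch genes 3 rose and 6 fell, with DLK1, an atypical ligand, at −0.51 ± 0.031 and the coactivator MAML2 at 0.51 ± 0.12. Of 41 Wnt genes 13 rose and 8 fell, with the inhibitor DKK1 at −0.59 ± 0.056 and the receptor FZD7 at 0.55 ± 0.077. In the TGF-β and BMP list, 12 of 42 rose and 14 fell. There TGFBR1, which had 28.5, 30.9 and 29.6 CPM in shAhR-1 libraries and 80.5, 86.6 and 81.7 CPM in controls, fell (−1.48 ± 0.046), while TGFBR2, the other receptor of the signalling pair, rose by 0.96 ± 0.11.

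Matrix and mesenchymal genes also divided. Of 54 collagen and matrix genes 23 rose and 12 fell (median 0.23, or 0.26 at the bound), led by MFAP4 and by LAMA4, a laminin chain, at 1.23 ± 0.078. MMP16 fell (−0.92 ± 0.064), as did MMP2 (−0.61 ± 0.029). In the mesenchymal list 10 of 31 rose and 10 fell. NT5E, the surface enzyme CD73, had 168, 167 and 171 CPM in shAhR-1 libraries, against 88.5, 87.2 and 87.3 CPM in controls, and rose by 0.95 ± 0.040. ANXA2 had 62.4, 63.7 and 60.1 CPM in shAhR-1 libraries and 149.9, 134 and 150.3 CPM in controls and fell (−1.22 ± 0.041), and vimentin (VIM) fell (−0.84 ± 0.038) with 24.4% of exonic bases shared. Of 24 smooth muscle and actin genes 7 rose and 11 fell, with CNN2 at 0.92 ± 0.057 and CALD1 at −0.83 ± 0.041. Of 30 cadherins 13 rose and 6 fell, with CELSR3 at 0.65 ± 0.050, CLSTN2 at −1.54 ± 0.068 and CDH11 at −1.58 ± 0.11. Few interferon genes were called, with 2 of 28 higher and 5 lower, among them the double-stranded RNA sensor EIF2AK2 (−0.602 ± 0.038) and OAS3 (−0.497 ± 0.049).

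Markers of other cell types were summed in each library. The 15 fibroblast markers summed to 267, 257 and 268 CPM in shAhR-1 libraries, against 227, 228 and 221 CPM in controls, with 6 of the 11 measured higher, 2 lower and 2 of the list at 0 in all 6 libraries. The log2 changes of the measured members ran from −0.63 to 1.65. Among those higher, LUM was at 68.1 ± 0.907 CPM with shAhR-1 and 49.5 ± 2.52 CPM in controls, and COL6A1 at 57.6 ± 2.23 CPM with shAhR-1 and 36.3 ± 1.43 CPM in controls. These values moved with the matrix genes, and their part in that result was not tested. The 12 glial markers summed to 25.7 to 28.1 CPM with shAhR-1 and 21.98 to 25.7 CPM in controls, with 1 of 8 measured higher, PMP22 (0.21 ± 0.065). The 12 leukocyte markers summed to 1.07 to 1.60 CPM with shAhR-1 and 0.631 to 1.55 CPM in controls, and the 10 endothelial markers to 2.49 to 3.06 CPM with shAhR-1 and 3.14 to 4.54 CPM in controls.

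RNA-processing genes closed the survey. The machinery that processes and loads short hairpins moved both ways, with 4 of 15 genes higher and 6 lower (median −0.04), and AGO3 (−0.46 ± 0.070), DICER1 (−0.21 ± 0.038) and AGO2 (−0.12 ± 0.038) among those that fell. Of 41 splicing regulators 27 fell and 9 rose, with MBNL2 at −1.12 ± 0.072, HNRNPC at −0.56 ± 0.028 and the neuronal ELAVL2 at 0.47 ± 0.087. Of 25 nuclear long noncoding RNAs and snoRNA hosts 9 rose and 10 fell, with SNHG14 at −0.87 ± 0.032, the paraspeckle RNA NEAT1 at 0.75 ± 0.054, MALAT1 at 0.43 ± 0.044 and MEG3 at 0.33 ± 0.026. Of 31 polycomb and DNA methylation genes 7 rose and 11 fell, with DNMT3B at −0.64 ± 0.098, TET1 at −0.41 ± 0.060, BMI1 at 0.45 ± 0.048 and KDM6B at 0.42 ± 0.041. Of 26 amino acid and ion transport genes 8 rose and 10 fell. LRRC8A, the essential subunit of the volume-regulated anion channel, had 42.2, 42.2 and 41.8 CPM in shAhR-1 libraries, against 124, 119 and 113 CPM in controls, and fell (−1.499 ± 0.054). LRRC8B fell (−1.04 ± 0.059) and LRRC8D rose by 0.41 ± 0.056.

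The shAhR-1 libraries were also set directly against the BE2C shAhR-2 libraries, a difference in which the controls enter only through the shared estimate of spread and the filter and scaling. With shAhR-1, 5653 genes were higher than with shAhR-2 (35.9%) and 5743 lower (36.5%), 72.4% of those tested, more than against the control. NRAS was at 53.6, 52.1 and 51.996 CPM with shAhR-1 and 229.6, 228 and 233 CPM with shAhR-2, a log2 difference of −2.13 ± 0.034. KCTD20 was at 27.03, 26.1 and 24.97 CPM with shAhR-1 and 162, 164 and 166 CPM with shAhR-2, a difference of −2.65 ± 0.044. Against the controls, the shAhR-2 libraries were lower for NRAS (−0.23 ± 0.031) and higher for KCTD20 (0.35 ± 0.038). CRH differed between hairpins by −2.32 ± 0.093, STC1 by −2.503 ± 0.14, SH3BGRL by −2.64 ± 0.084, RAB8B by −2.95 ± 0.084 and APLNR by −4.62 ± 0.13, with APLNR at 56.6, 49.7 and 43.8 CPM in the shAhR-2 libraries.

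ABCA12 gave the widest contrast among the genes that stood apart upward, at 63.7, 75.2 and 67.9 CPM with shAhR-1 and 1.67, 2.003 and 1.56 CPM with shAhR-2, a difference of 5.304 ± 0.090. Its control libraries lay between them. CADM2, a synaptic adhesion molecule, was at 49.2, 49.05 and 46.3 CPM with shAhR-1, against 17.6, 17.9 and 18.98 CPM with shAhR-2 and 18.4, 22.1 and 19.7 CPM in controls. RYR2, a calcium release channel, was at 18.6, 15.6 and 19.04 CPM with shAhR-1, against 3.76, 3.87 and 4.72 CPM with shAhR-2 and 7.65, 7.54 and 7.52 CPM in controls. The homeobox gene DRGX was at 16.8 ± 1.74 CPM with shAhR-1, against 1.51 ± 0.354 with shAhR-2 and 7.303 ± 0.855 in controls, and the peptide gene ADM2 at 7.97 ± 0.434, against 1.84 ± 0.122 with shAhR-2 and 3.47 ± 0.751 in controls. In these the shAhR-1 libraries exceeded all 6 others, which the choice of these genes required. LINC01619, ZNF528-AS1 and B3GALT2 were chosen in the same way, with differences between the hairpins of 1.68 ± 0.13, 1.99 ± 0.10 and 1.23 ± 0.15. TMEM108-AS1 (−2.77 ± 0.13) was chosen for lying below all others. Of the 15732 genes tested, 1662 were called against both groups and lay above all 6 other libraries, and 1773 lay below them.

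For other genes no difference between the hairpins was called, or the level with shAhR-2 lay further from the control. The differences of CEND1, DLG2 and S1PR2 were not called, at −0.24 ± 0.14 (adjusted p = 0.117), 0.03 ± 0.12 (adjusted p = 0.802) and 0.01 ± 0.085 (adjusted p = 0.95). DCX was at 203, 211 and 212 CPM with shAhR-1 and 497, 499 and 499.9 CPM with shAhR-2, a difference of −1.26 ± 0.030, and its controls lay below both. Division genes were mostly higher with shAhR-1 than with shAhR-2, 21 of 26 in mitotic entry, 35 of 44 in the spindle list and 36 of 41 at the replication fork, though TOP2A differed by only 0.28 ± 0.026 and MAD2L1 was lower with shAhR-1 (−1.11 ± 0.041). Integrated stress response genes were higher with shAhR-1 in 25 of 28 cases, with a median difference of 1.14, and collagen and matrix genes lower in 38 of 54, with a median of −1.32. TH was lower with shAhR-1 than with shAhR-2 (−0.53 ± 0.052), while DBH (1.12 ± 0.036), CHGB (1.01 ± 0.028) and MYCN (0.697 ± 0.024) were higher.

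**Figure D4:**
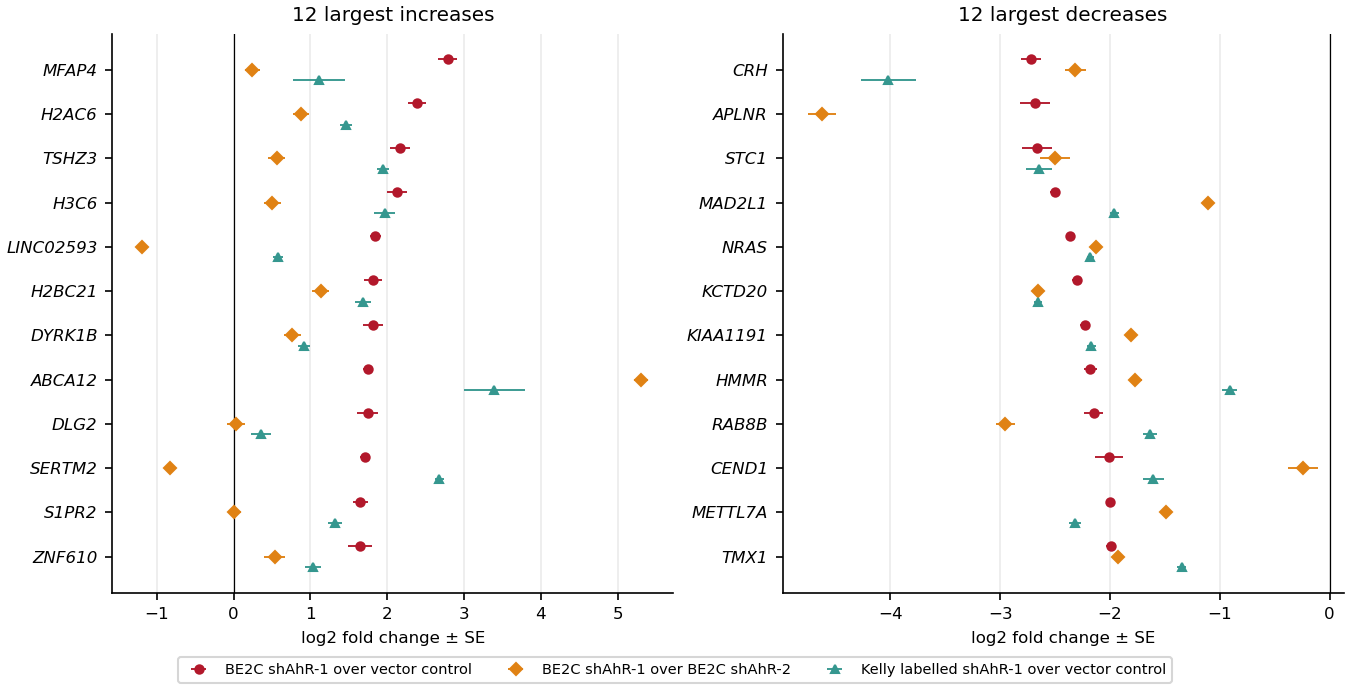
Log2 fold changes ± SE of the 12 genes with the largest increases (left) and the 12 with the largest decreases (right) with shAhR-1 in BE2C. Red circles are BE2C shAhR-1 over control, orange diamonds BE2C shAhR-1 over BE2C shAhR-2, and teal triangles the Kelly libraries labelled shAhR-1 over their control; orange points near 0, as for DLG2, S1PR2 and CEND1, are genes whose difference between the hairpins was not called, and APLNR has no Kelly point.

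The Kelly libraries share no sample with BE2C. AHR counts there were 18, 11 and 22 in the libraries labelled shAhR-1, against 4, 26 and 29 in controls, a ratio of 0.998 (0.672 to 1.48), so the label is not borne out by AHR in that line. Of 15871 genes tested in Kelly, 4691 were higher (29.6%) and 4915 lower (31%), 60.5% in all, with 4.62% higher and 5.02% lower by at least 2-fold. Among 14680 genes tested in both lines, 2367 rose and 2813 fell in both, which was 64.7% of the genes called in BE2C and 56.2% of those called in Kelly. A further 815 were called in opposite directions, 10.2% of the BE2C calls and 8.85% of the Kelly calls. Across these genes the log2 changes of the lines had a Pearson correlation of 0.461 and a Spearman correlation of 0.521, given as a description, since genes are not independent replicates. Of the 434 genes that fell at least 2-fold in BE2C, 393 were tested in Kelly, where 336 fell, 210 of them at least 2-fold, and 8 rose. Of the 632 that rose at least 2-fold, 522 were tested in Kelly, where 300 rose, 150 of them at least 2-fold, and 34 fell.

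The shared falls included the largest ones. NRAS was at 59.7, 60.8 and 59.4 CPM in the Kelly libraries labelled shAhR-1, against 272, 265 and 277 CPM in Kelly controls, a log2 change of −2.18 ± 0.033. KCTD20 was at 36.6, 36.2 and 35.7 CPM in the libraries labelled shAhR-1, against 226, 234 and 223 CPM in controls, a change of −2.65 ± 0.035. STC1 was at 2.61, 3.14 and 2.895 CPM in the libraries labelled shAhR-1, against 18.1, 19.05 and 17.01 CPM in controls, a change of −2.65 ± 0.12. All 3 fell in both lines, and the interaction, the BE2C change minus the Kelly change, was −0.01 ± 0.18 for STC1 (adjusted p = 1), −0.18 ± 0.045 for NRAS and 0.36 ± 0.056 for KCTD20. KIAA1191 and METTL7A changed by −2.17 ± 0.040 and −2.32 ± 0.053 in Kelly, and CRH, already low there at 4.16 ± 0.165 CPM in controls, by −4.02 ± 0.25. Shared rises were H3C6 (1.97 ± 0.14 in Kelly), TSHZ3 (1.95 ± 0.075), H2BC21 (1.68 ± 0.10), SERTM2 (2.68 ± 0.056), B3GALT2 (3.16 ± 0.23) and ABCA12 (3.395 ± 0.40). The floor of 5 CPM held for BE2C only. In Kelly ABCA12 was low, at 1.92 ± 0.216 CPM in libraries labelled shAhR-1 and 0.181 ± 0.0282 CPM in controls.

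**Figure D5:**
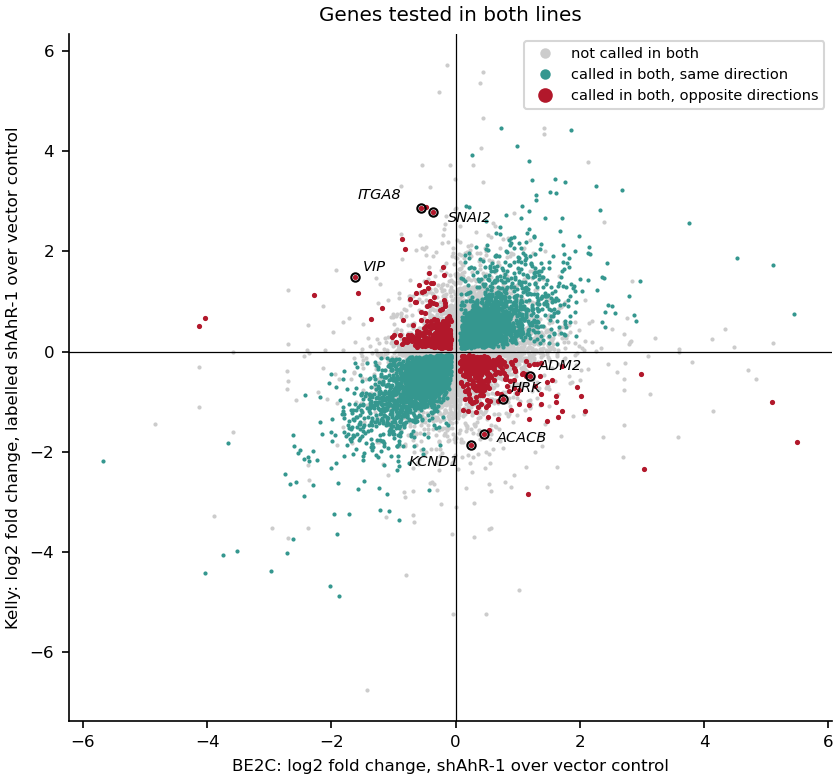
Log2 fold change in the Kelly libraries labelled shAhR-1 over Kelly control (vertical axis) against that of BE2C shAhR-1 over BE2C control (horizontal axis) for the 14680 genes tested in both lines. Teal points were called in both lines in the same direction, red points in opposite directions and grey points in at most 1 line; the 7 circled genes are among the red points with the largest interaction of each sign at a mean of at least 5 CPM in BE2C.

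The counts of several lists differed between the lines, a difference that was not tested for any list as a whole. The interaction was called for 35.7% of 17136 genes. Mitotic entry genes, all 26 lower in BE2C, were lower for 15 and higher for 4 in Kelly, with medians of −0.76 in BE2C and −0.16 in Kelly, and spindle genes were lower for 23 and higher for 9 in Kelly. HMMR fell less in Kelly (−0.91 ± 0.071, interaction −1.26 ± 0.095), and PLK1 did as well (−0.54 ± 0.040, interaction −0.85 ± 0.063, adjusted p = 2.07e-15). TOP2A was nearer (−1.19 ± 0.029, interaction −0.203 ± 0.040). Replication-dependent histones rose in both, with 17 of 32 higher and 3 lower in Kelly, and so did mitochondrial mRNAs, with 11 of 13 higher. Integrated stress response genes went the other way in Kelly, with 7 of 28 higher and 17 lower. The endoplasmic reticulum list, divided in BE2C, had 1 of 23 higher and 17 lower in Kelly. HSPA5 was at 329 ± 4.58 CPM in Kelly libraries labelled shAhR-1 and 621 ± 4.44 CPM in Kelly controls (−0.92 ± 0.027, interaction 1.2501 ± 0.039), and STC2 changed by −0.21 ± 0.090 there (interaction 1.104 ± 0.12).

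The catecholamine enzymes TH and DBH fell further in Kelly than in BE2C. TH was at 48.4, 53.2 and 45.7 CPM in the Kelly libraries labelled shAhR-1, against 356, 336 and 364 CPM in Kelly controls, and its interaction was 1.75 ± 0.069 (adjusted p = 1.48e-25). DBH changed by −2.76 ± 0.029 in Kelly, with an interaction of 2.35 ± 0.047, and MYCN by −0.99 ± 0.026, with an interaction of 0.74 ± 0.037.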

How the data were processed

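RNA-seq libraries of BE2C and Kelly were used as deposited by the authors, as raw counts per gene in 1 table per line. Per the labels' protocols, total RNA came from the miRNeasy kit and ribosomal RNA was depleted during library preparation (RNA HyperPrep, RiboErase). Per the submitters' processing notes, CASAVA 1.8.2 and STAR 2.7.9a were used with GRCh38.p7. The counting tool, annotation and strand setting are not given in the sources used, so overlapping and antisense genes and near-identical copies are uncertain. Even numbers made up 69.9% to 72.5% of the counts from 1 to 20, which could come from counting both mates of a pair, and counts were also halved as an alternative. Columns without a sample numbered 0.

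Each line was fitted with edgeR 4.0.16 (filterByExpr, TMM, glmQLFit, glmQLFTest) on its 3 groups of 3 libraries, in R 4.3.3 with limma 3.58.1, with calls at 0.05 on p-values adjusted by Benjamini-Hochberg over all genes tested. All 18 libraries were fitted together for the interaction. The SE is the absolute log2 fold change over the square root of F. AHR rate ratios pool counts, with exact 95% conditional intervals that cover counting error only. A list median at a bound sets genes at 0 in a group to 3 counts over that group. The methods were tested on simulated data.

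The comparison, the 56 lists (1667 genes, 1497 measured) and the rule for named genes were chosen with earlier results of these data known. The rule took AHR, ARNT and MYCN, the 12 largest rises and falls at a mean of at least 5 CPM with groups apart, the 5 smallest p each way, up to 3 members per list and direction, 8 genes each way apart from both other BE2C groups, 6 shared with Kelly and 4 per sign of the interaction. Further list members were chosen after their values were seen. Some genes picked by the rule or held by the lists are not named here and stay in every count. Locations are from GENCODE 29 and upstream windows from RefSeq. Alternatives were RLE size factors, other filters, a replicate block, each library left out, only the groups compared, no mitochondrial genes, halved counts and DESeq2 1.42.0. Tables and figures used scipy 1.17.1, pandas 2.3.3, matplotlib 3.10.9 and numpy 2.4.6 in Python 3.11.15.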

Additional observations from a re-analysis of the deposited data

Results flagged for a closer look

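In 7 genes the change with shAhR-1 was called in opposite directions in BE2C and in the Kelly libraries labelled shAhR-1, and the difference between the lines was among the largest of its sign, at a mean of at least 5 CPM in BE2C, in the interaction test of edgeR. They were chosen by the rule among 815 such genes.

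ITGA8, SNAI2 and VIP fell in BE2C and were higher in Kelly. ITGA8, an integrin chain, was at 26.04 ± 1.92 CPM with shAhR-1 and 38.5 ± 1.47 CPM in BE2C controls, and at 4.08 ± 0.477 CPM in Kelly libraries labelled shAhR-1 and 0.552 ± 0.0728 CPM in Kelly controls, with an interaction of −3.43 ± 0.18. The transcription factor SNAI2, of the epithelial-mesenchymal transition, had an interaction of −3.15 ± 0.28, with −0.36 ± 0.11 in BE2C and 2.79 ± 0.34 in Kelly, where its controls stood at 0.379 ± 0.0559 CPM. The neuropeptide gene VIP had −3.11 ± 0.27, with −1.62 ± 0.079 in BE2C and 1.495 ± 0.37 in Kelly, at 1.55 ± 0.131 CPM in libraries labelled shAhR-1 and 0.5501 ± 0.0575 CPM in Kelly controls. In Kelly these genes stood at low levels in every library, so their Kelly changes rest on few counts.

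KCND1, a potassium channel gene, was at 7.42 ± 0.645 CPM with shAhR-1 and 6.25 ± 0.336 CPM in BE2C controls, and at 2.57 ± 0.2398 CPM in Kelly libraries labelled shAhR-1 and 9.45 ± 0.288 CPM in Kelly controls, with an interaction of 2.13 ± 0.16. Its BE2C call (adjusted p = 0.0396) was lost in some alternative fits. ACACB, an acetyl-CoA carboxylase, had an interaction of 2.095 ± 0.17, with 0.45 ± 0.11 in BE2C and −1.63 ± 0.12 in Kelly. HRK, a death activator of neurons, had 1.71 ± 0.10, with 0.76 ± 0.085 in BE2C and −0.94 ± 0.058 in Kelly. ADM2, a peptide gene, had 1.704 ± 0.26, with 1.199 ± 0.15 in BE2C and −0.495 ± 0.21 in Kelly (adjusted p = 0.0401).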

How the results depend on the processing

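Over all alternatives of the comparison, including each library left out in turn, 3391 to 3991 genes were higher and 4031 to 4481 lower with shAhR-1, within 1.5 times of the counts given. The AHR ratio in BE2C ranged from 0 to 0.875 over libraries left out, and it was 0 only without the first shAhR-1 library, and 0.584 with halved counts (0.125 to 2.30). Of 4609 values of 308 named genes, 4504 kept direction and call, 0 reversed, 102 lost the call, in 25 genes, and the 3 newly called were all MT-RNR2. Genes whose call was lost in at least 1 setting included TIPARP, MCM5, ALK, HSF1, NDUFS7, PMP22 and KCND1. Of 1680 list counts, 65 moved by over 1.5 times. Without shAhR-1 replicate 1, 4 growth factor receptors (7 with all libraries) and 5 nuclear long noncoding RNAs and hosts (9) were called higher, and 5 channel genes (3) lower. Nuclear respiratory chain genes called higher numbered 4 or 5 (8) without control replicate 2 or any one shAhR-1 library. Genes called higher numbered 2 (4) in glycolysis without control replicate 3 or shAhR-1 replicate 1 or 2, and 1 (3) in the nucleolus list without control replicate 2 or shAhR-1 replicate 1 or 2. They numbered 3 (5) in iron handling without control replicate 1 or shAhR-1 replicate 3, and 1 (3) in mitochondrial DNA maintenance without shAhR-1 replicate 2 or 3. In the retinoic acid list they numbered 2 or 3 (5) without control replicate 1 or 2 or shAhR-1 replicate 1. Synaptic genes called lower numbered 5 (8) without control replicate 3. The other moved counts were of at most 2 genes with all libraries, for interferon genes higher, chaperones, proteasome, repair and replication fork genes higher, targets of the receptor lower, histones lower and markers of other cell types, apart from mitochondrial mRNAs where these were left out. Leaving out the first BE2C shAhR-2 library was chosen after seeing the data. The depth of these libraries leaves genes such as AHR, at 0 to 8 counts, without a measurable change.

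Same-numbered shAhR-1 and control libraries of BE2C did not deviate together (correlations −0.05, −0.09 and −0.04). In Kelly the same correlations were −0.04, −0.05 and −0.02. No pairing by number was seen, but with 3 libraries per group these values cannot exclude one. With the replicate number as a block, 3884 genes were higher and 4226 lower against control, 5601 and 5689 against shAhR-2, 4619 and 4876 in Kelly, and 2918 and 3053 in the interaction, against 2994 and 3121 without it. The interaction had 2889 higher and 3461 lower with DESeq2.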

Other observations

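Genes named as zinc finger proteins (ZNF, ZFP, ZSCAN or ZKSCAN symbols) were a group chosen after its values were seen. Of 401 with a mean of at least 5 CPM, 49.1% were higher and 14.5% lower, with a median log2 of 0.17, against 28.6% and 38.7% of all 9750 coding genes at that level. Their median was 0.23 in the Kelly libraries labelled shAhR-1. Members of this family resemble one another, and no test was run on the group.

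The length of a gene's span and its change had a Spearman correlation of −0.006 over the same 9750 coding genes, given as a description. Of 785 pseudogenes tested, 12.99% were higher and 5.99% lower, at a median level of 0.676 CPM, against 23.0 CPM for coding genes.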
